A study of Mus musculus with 6 samples.

Results

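The 48 genes described here encode the proteins that license, unwind and copy chromosomal DNA, and the enzymes that supply deoxynucleotides for it. They were chosen by symbol from a list of replication factors, and all 48 were found among the 24589 gene symbols of the table. The cells were primary CD8+ T cells, the cytotoxic lymphocytes, taken from WT mice (C57BL/6, spleen and lymph nodes, selected with magnetic beads). Every sample was activated with antibodies to CD3 and CD28 and grown in Click's medium with fetal bovine serum, and was then given either DMSO, the solvent control, or trans-vaccenic acid at 20 µM (TVA, a ruminant-fat trans fatty acid) for 24 h. Each group had 3 bulk RNA-seq libraries. The labels do not say whether the 3 came from separate animals or cultures, so the p-values measure only the spread between these libraries.

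Replication begins with licensing. The origin recognition complex, with Cdc6 and Cdt1, loads the MCM2-7 helicase onto origins as an inactive ring, and the Dbf4-Cdc7 kinase, Cdc45 and the GINS complex then turn that ring into the moving helicase of the fork. DNA polymerase alpha-primase lays primers, polymerases delta and epsilon extend them while held by the PCNA ring, and ribonucleotide reductase makes the deoxynucleotides they use. Activated CD8+ T cells divide rapidly, and E2F transcription factors, restrained by the pocket proteins, are known to drive many of these genes as cells enter S phase.

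Levels were read as TPM, a transcript abundance scaled for gene length and to the same total in each library, so that levels can be compared between genes. Changes are on the log2(TPM + 1) scale, tested with limma over all genes with at least 1 TPM in at least 3 libraries. TPM keeps no record of sequencing depth, which is unknown here. Between 10778 and 10870 genes reached 1 TPM in a library. DMSO replicate 2 correlated with the TVA libraries across genes (Pearson, 0.9957 to 0.9964) more closely than with DMSO replicate 1 (0.9929) or DMSO replicate 3 (0.9945), and the deviations of DMSO replicate 1 from the gene means followed transcript GC content (Spearman 0.588, against -0.412 to 0.002 in the other libraries). Both libraries stand apart within their group, and counts without them are given below. The CD8 T cell markers were high, with Cd8a between 274 and 318 TPM, and 1 of 6 of them (Cd3g) passed the test as higher with TVA. Their summed level was 1670 to 1800 TPM with DMSO and 1912 to 1943 with TVA. Among markers of other cells, the 6 myeloid genes summed to 40.7 to 44.4 TPM with DMSO and 54.2 to 55.8 with TVA, and 1 of them, Lyz2, rose (limma adjusted p 0.00757), with Itgam, Csf1r, Adgre1 and Cd14 at most 3.01 TPM in any library. The CD4 T cell (7.6 to 10.1 TPM), B cell (10.6 to 14.9) and NK cell (0.2 to 1.1) lists stayed low, with Cd40lg lower past the threshold, Pax5 listed at 0 in DMSO replicates 2 and 3, and Klra8 at 0 in TVA replicate 1. The 4 haemoglobin genes summed to 37.5 to 61.1 TPM, with Hbb-bt lower past the threshold. The part of these markers in the results on replication genes was not tested.

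With TVA, 8 of the 48 replication genes rose, 0 fell and 40 did not pass the test. Those that rose were Cdc45, Pcna, Pola1, Prim1, Prim2, Rpa1, Rrm2 and Chaf1a, all by 10.7 to 18.9% in mean TPM. The 8 genes are 16.7% of the members, against 5.28% of the 10866 genes tested that passed as higher, 5.69% where the filter was a mean of 10 TPM or more, a level that all 48 members exceed. In all, 8.51% of the genes tested passed in either direction, including 3.23% lower with TVA. The TVA libraries lay above the DMSO libraries without overlap for 23 members (47.9%, against 27.3% of all genes tested) and below them for 0 (against 11.2%), and the groups overlapped for 25. The median log2 change was 0.085 over the members and 0.04 over all genes tested, with 39 members above 0 and 9 below. These medians were 0.0562 and 0.0113 after median-of-ratios scaling, and 0.0576 and 0.0188 after a correction for GC content. In these bulk libraries, more cells expressing a gene and more of its RNA per cell cannot be told apart. Summed over the 48 genes, the level was 5013, 5019 and 4908 TPM in the DMSO libraries and 5306, 5367 and 5364 in the TVA libraries, which did not overlap.

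The calls depended on which libraries were used. With a library left out, the median log2 change ran from 0.0701 to 0.0954 over the members and from 0.0245 to 0.0505 over all genes tested. With any TVA library left out, 0 of 48 members passed in limma, and 38 to 51 genes of the whole table (0.35 to 0.469%) still passed as higher. In these fits 10 to 14 of the 48 members had an unadjusted p under 0.05, as did 2174 to 2711 of the 10866 genes tested. The count was 10 without DMSO replicate 1, 13 without DMSO replicate 2 and 3 without DMSO replicate 3. The shares of all genes tested that passed as higher in these fits were 5.75%, 11.3% and 1.32%. Every call of a member in each of these fits was higher with TVA. After median-of-ratios scaling 3 members passed (Chaf1a, Pola1 and Prim2), and the split of all calls moved from 574 higher and 351 lower to 292 higher and 462 lower.

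**Figure D1:**
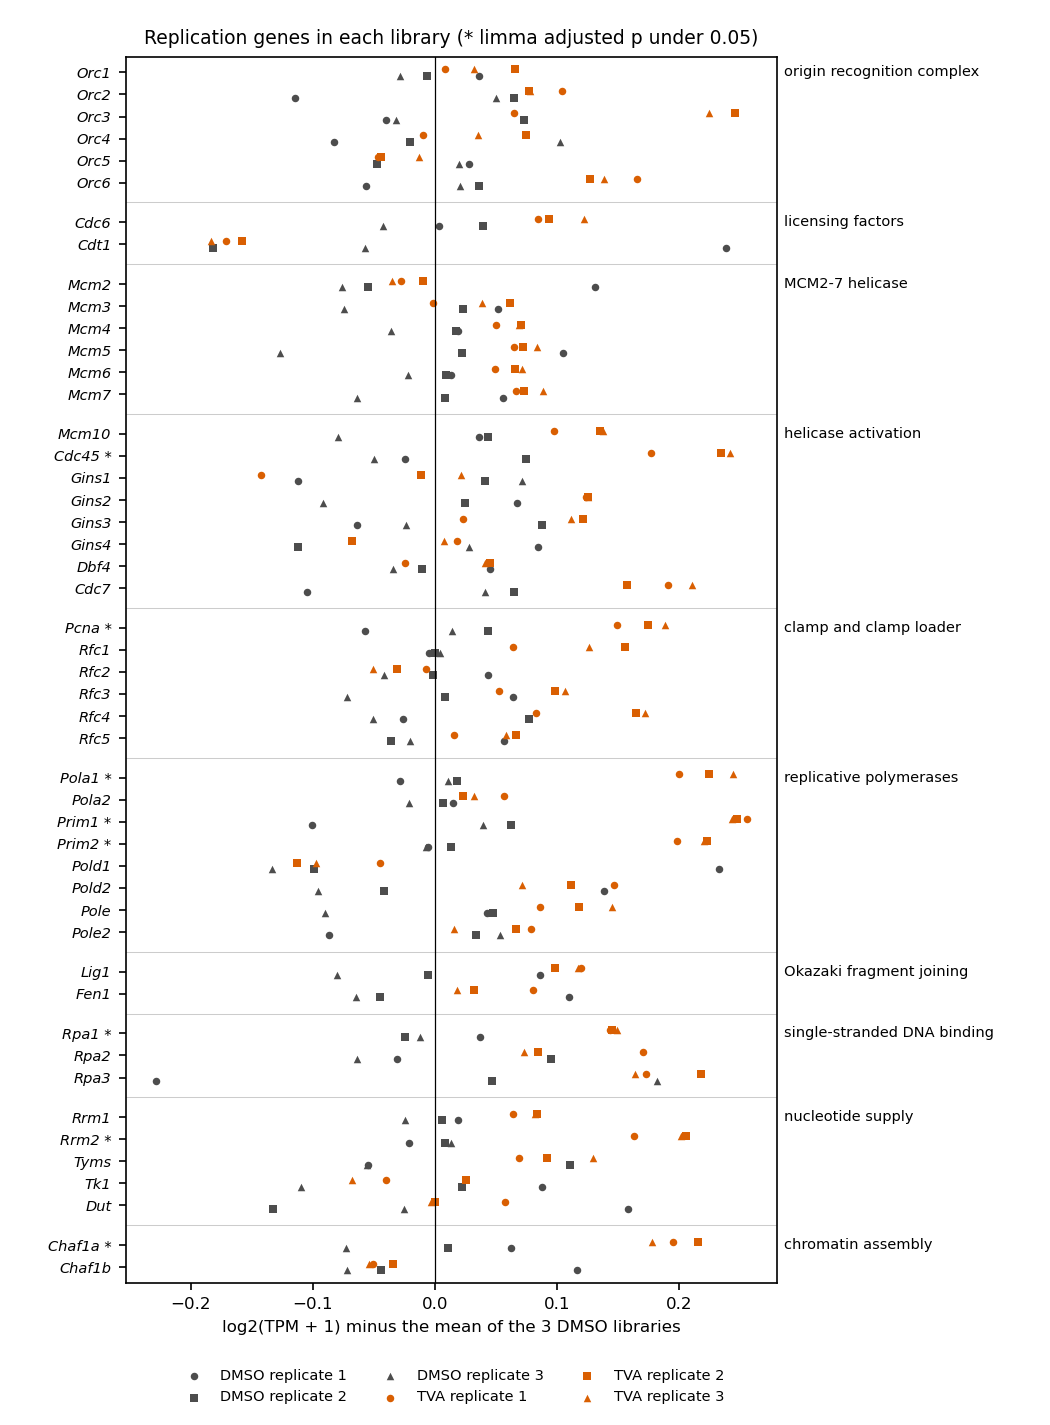
Level of each replication gene in each of the 6 libraries, as log2(TPM + 1) minus the mean of the 3 DMSO libraries, grouped by role. Grey symbols are DMSO and orange symbols TVA, and an asterisk marks the 8 genes with a limma adjusted p under 0.05, in which every orange symbol lies to the right of every grey one.

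Promoter sequences were available from RefSeq (GRCm38.p6) for 41 of the 48 genes, as 50 promoters from 250 bases before to 50 bases after a start site. They were searched on both strands for the E2F letters TTTCCCGC, TTTGGCGC, TTTCGCGC and TTTGCCGC and for CCAAT, the box of the factor NF-Y. E2F letters stood in 14 of the 50 promoters (28.0%, against 2.26% of all 32851 promoters in the table) and CCAAT in 26 (52.0%, against 37.4%). Both stood in 16.0%, against 0.962% of all promoters, and 3 pairs of matches overlapped each other. All 7 genes that rose and had a promoter entry held CCAAT, as did 17 of the other 34, whereas E2F letters stood in 1 of the 7 (Pola1) and 13 of the 34. The 14 genes with E2F letters had a median log2 change of 0.075 and the 27 without them 0.109. These matches describe the letters in a window and do not show binding.

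The 250 bases before the start site are printed for 4 genes that rose and for Mcm6, the MCM subunit of highest level, because they show both patterns: Prim1, Pcna and Rrm2 with CCAAT alone, Pola1 with both motifs, and Mcm6, which did not pass the test, with 3 E2F matches and 2 CCAAT boxes. Each is written 5′ to 3′ on the strand of the gene, and capitals mark the motif matches on either strand.
Pola1, chrX:93632156-93632405, minus strand: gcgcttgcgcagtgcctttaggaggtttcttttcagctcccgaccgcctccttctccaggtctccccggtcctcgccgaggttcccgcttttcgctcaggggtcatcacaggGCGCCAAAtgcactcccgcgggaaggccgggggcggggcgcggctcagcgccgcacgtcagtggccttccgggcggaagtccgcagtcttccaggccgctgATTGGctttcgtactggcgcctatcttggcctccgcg
Prim1, chr10:128014965-128015214, plus strand: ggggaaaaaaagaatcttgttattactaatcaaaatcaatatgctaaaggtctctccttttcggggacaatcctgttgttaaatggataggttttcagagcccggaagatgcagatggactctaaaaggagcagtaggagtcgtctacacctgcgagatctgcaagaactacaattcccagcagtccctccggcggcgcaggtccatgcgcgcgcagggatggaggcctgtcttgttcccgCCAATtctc
Pcna, chr2:132253181-132253430, minus strand: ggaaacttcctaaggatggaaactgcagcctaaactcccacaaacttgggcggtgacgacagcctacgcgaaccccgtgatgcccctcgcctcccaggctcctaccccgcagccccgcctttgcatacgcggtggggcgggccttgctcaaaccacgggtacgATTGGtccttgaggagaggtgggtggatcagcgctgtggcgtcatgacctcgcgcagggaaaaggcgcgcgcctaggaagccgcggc
Rrm2, chr12:24708004-24708253, plus strand: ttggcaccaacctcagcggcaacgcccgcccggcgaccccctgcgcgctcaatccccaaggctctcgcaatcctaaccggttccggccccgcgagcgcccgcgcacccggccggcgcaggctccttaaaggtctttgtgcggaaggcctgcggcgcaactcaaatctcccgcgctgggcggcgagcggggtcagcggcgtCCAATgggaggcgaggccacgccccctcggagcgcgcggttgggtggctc
Mcm6, chr1:128359706-128359955, minus strand: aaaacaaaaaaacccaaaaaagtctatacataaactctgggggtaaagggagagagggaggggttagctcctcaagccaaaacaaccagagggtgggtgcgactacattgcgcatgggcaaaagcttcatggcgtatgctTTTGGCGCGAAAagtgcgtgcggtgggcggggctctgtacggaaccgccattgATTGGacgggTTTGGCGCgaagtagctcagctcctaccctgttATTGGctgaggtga
In Pola1 the E2F letters began 138 bases before the start and the CCAAT box 37 bases before it. The annotated Pola1 gene runs to chrX:93632387, so most of this window, with both motifs, lies inside the gene as annotated. In Mcm6 the first pair of E2F matches overlapped on opposite strands, 110 and 106 bases before the start. The search took exact letters only. Prim1 holds GTTCCCGC, which overlaps its CCAAT box and differs from the E2F letters TTTCCCGC only in the first letter.

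**Figure D2:**
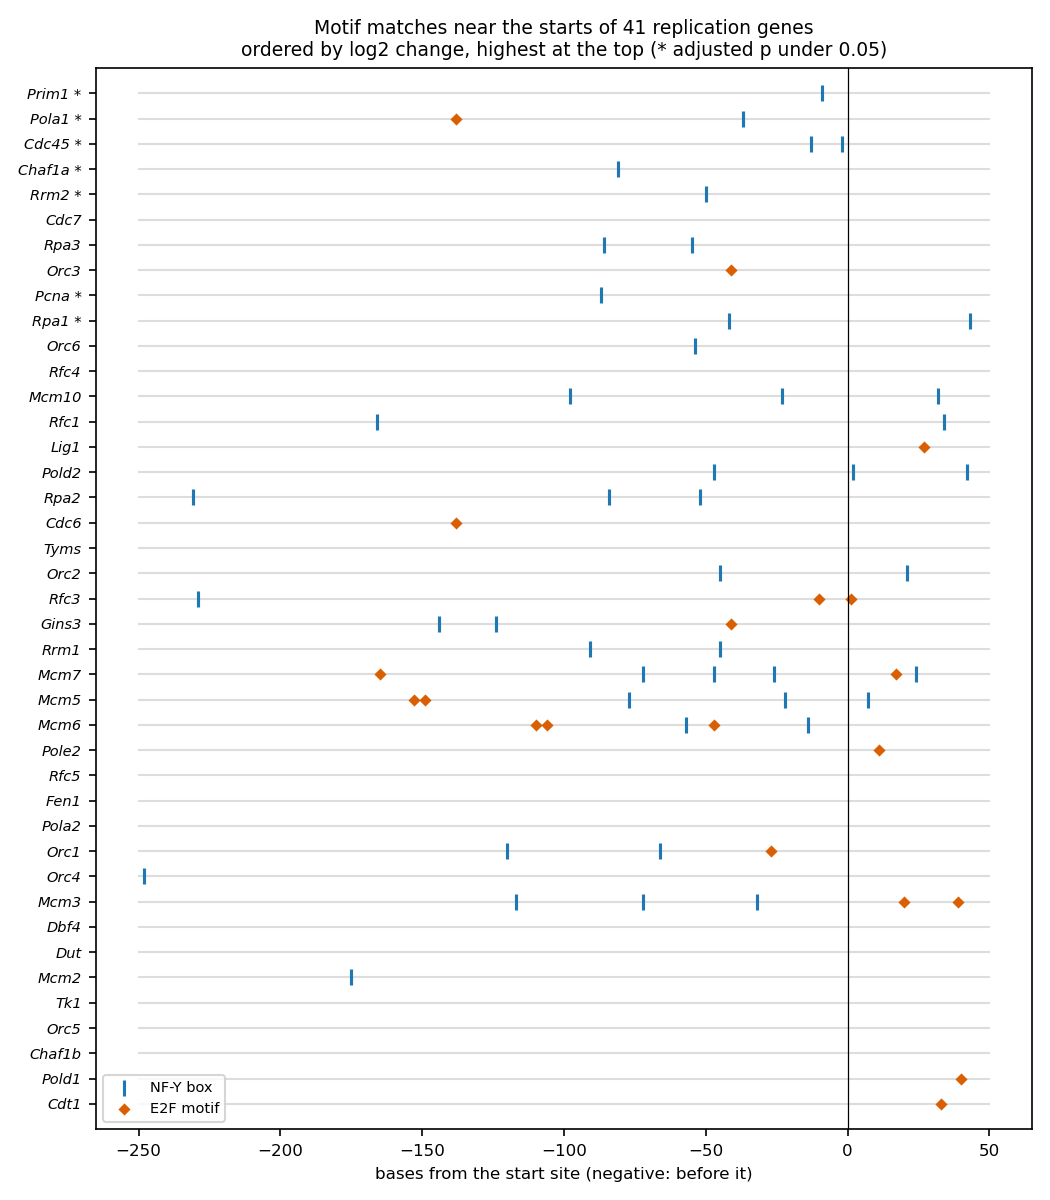
Positions of motif matches, in bases from the start site, in the promoters of 41 replication genes ordered by log2 change, with alternative starts of a gene drawn on one line. Blue bars are NF-Y boxes, orange diamonds E2F motifs and asterisks genes that rose, and of the 7 asterisked genes all carry a blue bar and 1 carries a diamond.

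The origin recognition complex, which marks the sites where replication can start, had 0 of 6 genes past the threshold, with log2 changes from -0.03 (Orc5) to 0.18 (Orc3). Its subunits lay between 20.4 TPM (Orc3) and 87.3 TPM (Orc6) in mean DMSO level. Orc6 was at 83.9, 89.5 and 88.5 TPM in the DMSO libraries and 98.0, 95.4 and 96.1 TPM in the TVA libraries. Every TVA library was above every DMSO library for this subunit, and the change of 0.14 (SE 0.039) missed the threshold (limma adjusted p 0.0596). It passed without DMSO replicate 2 (adjusted p 0.0338). Orc2 was the other subunit whose groups did not overlap, at 60.0, 68.1 and 67.4 TPM in the DMSO libraries and 70.0, 68.7 and 68.7 TPM in the TVA libraries (log2 change 0.09, adjusted p 0.296), and 29.8% of its annotated exon bases are shared with Nif3l1 on the opposite strand.

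Neither of the 2 factors that load the helicase passed the test. Cdc6, the ATPase that works with the origin recognition complex, had 27.6, 28.3 and 26.7 TPM in the DMSO libraries and 29.2, 29.4 and 30.0 TPM in the TVA libraries (log2 change 0.10, adjusted p 0.140), without overlap. Cdt1, which brings the helicase to the origin and is held back by geminin, had the lowest log2 change of the 48 genes, at -0.17 (SE 0.096, adjusted p 0.255, 95% interval -0.39 to 0.05). Its TPM was 66.0, 49.1 and 53.6 with DMSO and 49.4, 49.9 and 49.0 with TVA. DMSO replicate 1 was the high library, and the TVA values lay at the lower end of the DMSO range, with a log2 change of -0.05 when that library was left out (adjusted p 0.445).

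The MCM2-7 helicase, the ring of 6 related ATPases that unwinds the template, had 0 of 6 genes past the threshold. Its subunits were expressed within a narrow range, from a DMSO mean of 131 TPM for Mcm2 to 237 TPM for Mcm6, and their log2 changes ran from -0.02 (Mcm2) to 0.08 (Mcm7). Mcm6 was at 239, 238 and 233 TPM in the DMSO libraries and 245, 248 and 249 TPM in the TVA libraries, a log2 change of 0.06 with an SE of 0.033 (limma adjusted p 0.229, 95% interval -0.01 to 0.14). The groups did not overlap for Mcm4, Mcm6 and Mcm7 and did for Mcm2, Mcm3 and Mcm5. The highest DMSO value of Mcm2, Mcm3 and Mcm5 was in DMSO replicate 1 (143, 221 and 182 TPM), and for these 3 genes it exceeded at least 2 of the TVA libraries.

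Of the 8 genes that turn the loaded ring into an active helicase, 1 rose. Cdc45 (chr16:18780447-18811972 in GRCm38.p6, minus strand), which joins the ring and GINS in the moving helicase, was at 68.8, 73.7 and 67.6 TPM in the DMSO libraries and 79.3, 82.5 and 82.9 TPM in the TVA libraries. All 3 TVA libraries were above all 3 DMSO libraries, with a log2 change of 0.22 with an SE of 0.045 (limma adjusted p 0.0321), and the call held in 7 of 14 alternatives (adjusted p 0.00727 to 0.152). Cdc7, the kinase that triggers origin firing, was at 23.7, 26.8 and 26.3 TPM in the DMSO libraries and 29.3, 28.6 and 29.8 TPM in the TVA libraries. Its groups did not overlap either, and its log2 change of 0.19 was the highest of the 40 genes that missed the threshold (adjusted p 0.0674). Dbf4, the regulatory subunit of the same kinase, had a log2 change of 0.02 (adjusted p 0.751). Mcm10, which helps to start unwinding, had 0.12 (adjusted p 0.116), and its groups did not overlap. The 4 GINS subunits spanned 14.3 TPM (Gins3) to 71.2 TPM (Gins2) in DMSO mean and -0.04 (Gins1) to 0.12 (Gins2) in log2 change. Gins2 passed only after the correction for GC content (adjusted p 0.0343), and 67.3% of its exon bases overlap Gse1 on the opposite strand.

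Pcna, the sliding clamp, had the highest level of the 48 genes in every library. It was at 927, 994 and 974 TPM in the DMSO libraries and 1069.8, 1089 and 1099.5 TPM in the TVA libraries. The groups did not overlap, and the log2 change was 0.17 (SE 0.040, limma adjusted p 0.0441), a rise of 12.5% in mean TPM. The call held in 4 of 14 alternatives, the fewest of the 8, and was lost after the GC correction (log2 change 0.09, adjusted p 0.115). The 5 clamp loader genes, Rfc1 to Rfc5, had means from 54.7 TPM (Rfc3) to 104 TPM (Rfc2) with DMSO, and 0 of 5 passed. Their log2 changes ran from -0.03 (Rfc2) to 0.14 (Rfc4), and the TVA libraries lay above DMSO without overlap for Rfc1 and Rfc4. Rfc1, the large subunit, was at 61.0, 61.3 and 61.4 TPM with DMSO, the tightest DMSO group of the loader, and at 64.1, 68.3 and 66.9 TPM with TVA (log2 change 0.12, adjusted p 0.0933).

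The replicative polymerases held 3 of the 8 genes that rose, all of them subunits of DNA polymerase alpha-primase, the enzyme that starts each new strand. Prim1, the catalytic primase subunit, showed the highest log2 change of the 48 genes. It was at 94.8, 106 and 105 TPM in the DMSO libraries and 122, 121 and 121 TPM in the TVA libraries, a log2 change of 0.25 with an SE of 0.049 (limma adjusted p 0.0267). Prim2 (chr1:33453808-33669808, minus strand), the large primase subunit, was at 47.6, 48.2 and 47.5 TPM in the DMSO libraries and 55.0, 55.9 and 55.8 TPM in the TVA libraries. Both groups were tight, and the log2 change of 0.21 (SE 0.034) had the lowest adjusted p of the members (0.0162). Pola1, the catalytic polymerase subunit, was at 34.8, 36.0 and 35.8 TPM in the DMSO libraries and 41.0, 41.7 and 42.3 TPM in the TVA libraries, a log2 change of 0.22 (SE 0.037, adjusted p 0.0172). No TVA library overlapped a DMSO library for any of these 3 genes. The calls for Pola1 and Prim2 held in 10 of 14 alternatives (adjusted p 0.0121 to 0.11 and 0.0108 to 0.102) and that for Prim1 in 7 (0.00911 to 0.128).

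Pola2, the accessory subunit of polymerase alpha, was at 76.7, 76.2 and 74.8 TPM in the DMSO libraries and 79.0, 77.1 and 77.6 TPM in the TVA libraries. Its groups did not overlap, but its log2 change was 0.04 (SE 0.034, limma adjusted p 0.476, 95% interval -0.04 to 0.12). In polymerase delta, the lagging-strand enzyme, the catalytic subunit Pold1 had a log2 change of -0.09 (adjusted p 0.545) and its partner Pold2 of 0.11 (adjusted p 0.258). DMSO replicate 1 was the highest DMSO library for both, at 69.4 TPM for Pold1 against 55.0 and 53.6, and at 111 TPM for Pold2 against 98.1 and 94.4. Pold2 passed without that library (adjusted p 0.0335) and after the GC correction (adjusted p 0.0113, log2 change 0.21). Pole, the catalytic subunit of the leading-strand polymerase, had 0.12 (adjusted p 0.155) and Pole2 0.05 (adjusted p 0.472).

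**Figure D3:**
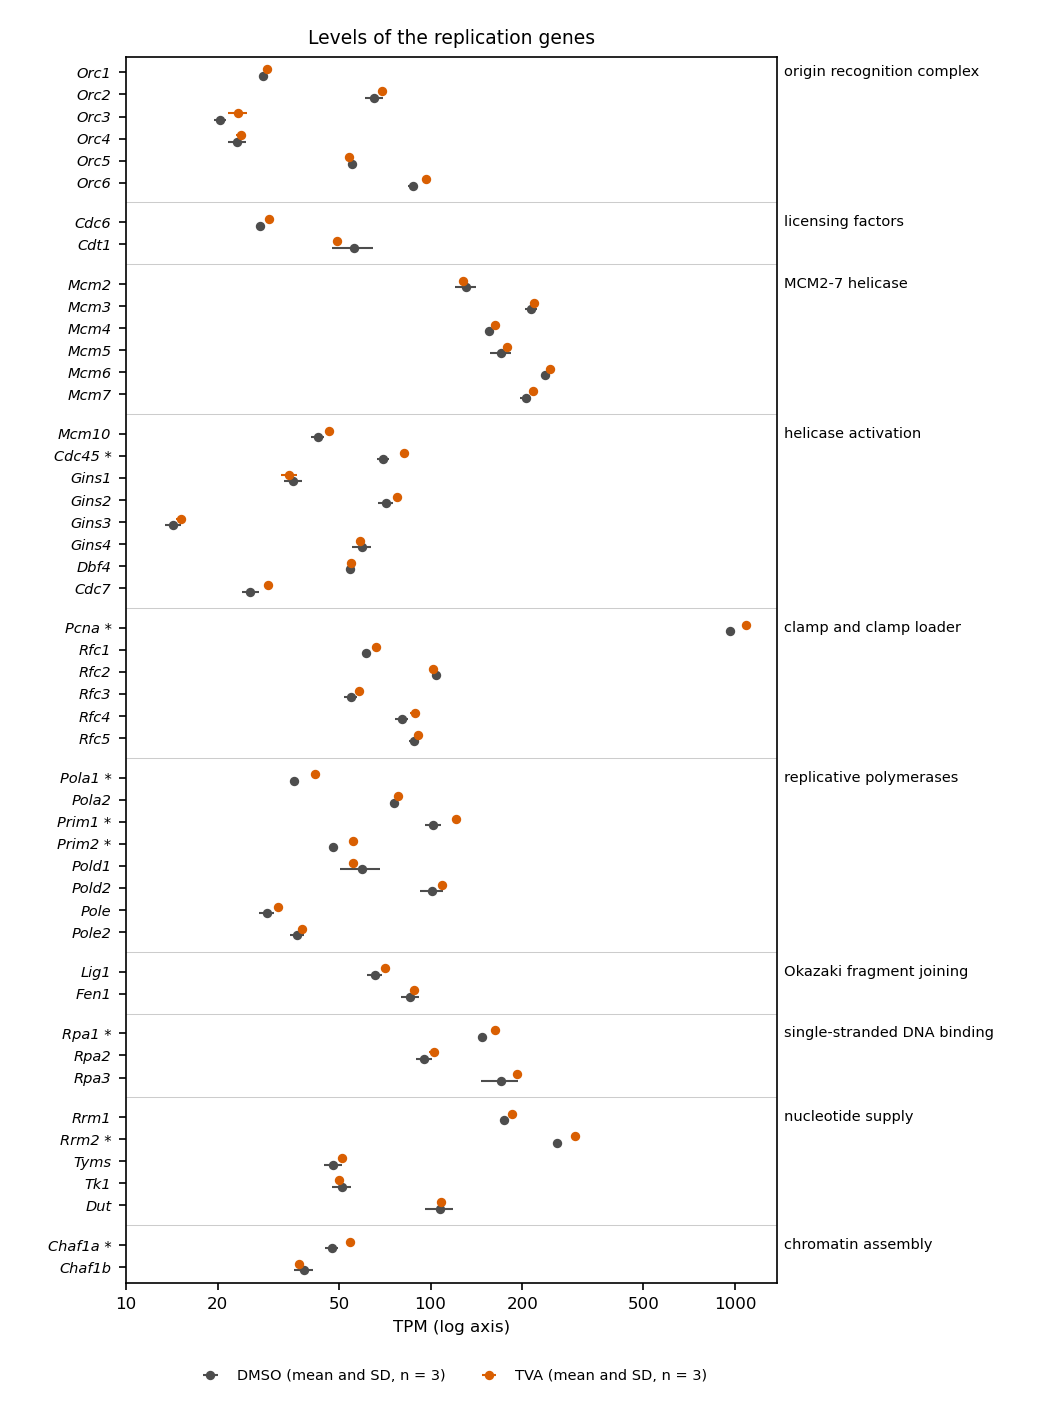
Mean TPM (log axis) of each replication gene with DMSO (grey) and TVA (orange), bars showing the SD over 3 libraries. Levels ran from 14.3 TPM for Gins3 to 965 TPM for Pcna with DMSO, and the grey bars are longer than the orange ones, as a share of the mean, for 44 of the 48 genes.

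Neither enzyme that finishes lagging-strand fragments passed the test. Fen1, the flap endonuclease, was at 92.7, 83.1 and 82.0 TPM in the DMSO libraries and 90.8, 87.7 and 86.9 TPM in the TVA libraries (0.04 in log2, SE 0.053, limma adjusted p 0.597), with overlapping groups. The antisense gene Gm10143 covers 78.8% of its exon bases. Lig1, the ligase that seals the nicks, was at 69.5, 65.2 and 61.9 TPM in the DMSO libraries and 71.2, 70.1 and 71.1 TPM in the TVA libraries. Its groups did not overlap (log2 change 0.11, adjusted p 0.157), and it passed without DMSO replicate 1 (adjusted p 0.0458).

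Replication protein A coats the single-stranded DNA behind the helicase, and 1 of its 3 genes rose. Rpa1 (chr11:75300259-75348454, minus strand), the large subunit, was at 151, 144 and 146 TPM in the DMSO libraries and 162, 163 and 163 TPM in the TVA libraries. The TVA libraries were nearly equal and above all DMSO libraries, with a log2 change of 0.15 with an SE of 0.034 (limma adjusted p 0.0441), and the call held in 6 of 14 alternatives. Rpa3, the small subunit and the most abundant of the 3, was at 144, 175 and 192 TPM in the DMSO libraries and 191, 197 and 189 TPM in the TVA libraries. DMSO replicate 1 was far below the other libraries, and its log2 change of 0.18, larger than that of Rpa1, had an SE of 0.093 (adjusted p 0.215). Rpa2, the middle subunit, had a log2 change of 0.11 (adjusted p 0.194) with overlapping groups.

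Among the 5 genes of nucleotide supply, 1 rose. Rrm2, the small subunit of ribonucleotide reductase, whose level is known to follow the cell cycle, was at 256, 262 and 263 TPM in the DMSO libraries and 292, 300.3 and 299 TPM in the TVA libraries. The groups lay well apart, with a log2 change of 0.19 with an SE of 0.034 (limma adjusted p 0.0208), and the call held in 9 of 14 alternatives (adjusted p 0.0123 to 0.127). Rrm1, the large subunit, was at 177, 176 and 172 TPM in the DMSO libraries and 183, 185 and 185 TPM in the TVA libraries. It did not overlap either, but its log2 change of 0.08 missed the threshold (adjusted p 0.158). Tyms, which makes thymidylate, had a log2 change of 0.10 (adjusted p 0.251), Dut, which removes dUTP, 0.02 (0.875) and Tk1, which salvages thymidine, -0.03 (0.761), all with overlapping groups. Dut was at 119 TPM in DMSO replicate 1 against 97.2 and 105 TPM in the other two.

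Of the 2 genes of chromatin assembly factor 1, which places histones on new DNA, 1 rose. Chaf1a (chr17:56040416-56068026, plus strand), the large subunit, was at 49.4, 47.7 and 44.9 TPM in the DMSO libraries and 54.3, 55.1 and 53.7 TPM in the TVA libraries. It rose without overlap, by 0.20 (SE 0.045, limma adjusted p 0.0411), and the call held in 7 of 14 alternatives (adjusted p 0.00931 to 0.172). Its exon bases overlap those of Ubxn6 on the opposite strand over 52.5% of their length. Whether the counting used strand is not stated, so reads of the pair cannot be told apart, and Ubxn6 itself had a log2 change of -0.15 (adjusted p 0.263). Chaf1b was at 41.7, 37.2 and 36.5 TPM in the DMSO libraries and 37.0, 37.4 and 36.9 TPM in the TVA libraries, a log2 change of -0.05 (adjusted p 0.582), with overlapping groups.

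Because TPM is scaled by length, the make-up of each complex can be written as each subunit's share of its summed TPM within a library. These shares are free of any scaling between libraries, but not of a trend with GC content (given below). They are a description, with no test. GC content was 54.3% for Pola2 against 41.8, 44.3 and 45.5% for Pola1, Prim1 and Prim2. It was 47.3% for Rrm2 and 43.4% for Rrm1, and 53.4% for Chaf1a and 53.6% for Chaf1b. The part of GC content in the shares was not tested. In polymerase alpha-primase the share of Pola2 was 30.2, 28.6 and 28.5% with DMSO and 26.6, 26.1 and 26.2% with TVA. The shares of Prim1 (39.0% ± 1.43 against 40.9% ± 0.164, SD, n = 3) and Pola1 (13.6% ± 0.113 against 14.1% ± 0.227) were correspondingly higher. In ribonucleotide reductase the share of Rrm2 was 59.1, 59.9 and 60.4% with DMSO and 61.5, 61.8 and 61.8% with TVA. In chromatin assembly factor 1 the share of Chaf1a was 54.3, 56.2 and 55.2% with DMSO and 59.5, 59.5 and 59.2% with TVA. For these 5 subunits the TVA libraries lay outside the DMSO range, whereas the share of Prim2 overlapped (18.3% ± 0.375 against 18.8% ± 0.199). The share of Cdc7 in the Dbf4-Cdc7 pair was 32.1% ± 2.01 with DMSO and 34.7% ± 0.834 with TVA, that of Pold2 in the Pold1-Pold2 pair 63.1% ± 1.37 and 66.3% ± 0.441, and that of Orc6 in the origin recognition complex 31.2% ± 0.318 and 32.6% ± 0.567, again without overlap. The shares of Gins2 in GINS (39.5% against 41.8%), Rfc2 in the clamp loader (26.8% against 25.1%) and Orc5 (19.8% against 18.2%) did not overlap either. In replication protein A and in the Pole-Pole2 pair the share of every subunit overlapped between the groups. Shares were not computed for other genes, so their lack of overlap has no background here. The make-up of MCM2-7 moved little. Mcm3, Mcm4, Mcm5 and Mcm6 overlapped between the groups. Mcm2 went from 11.7% ± 0.567 to 11.1% ± 0.12 and Mcm7 from 18.5% ± 0.0217 to 18.8% ± 0.123, both without overlap.

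**Figure D4:**
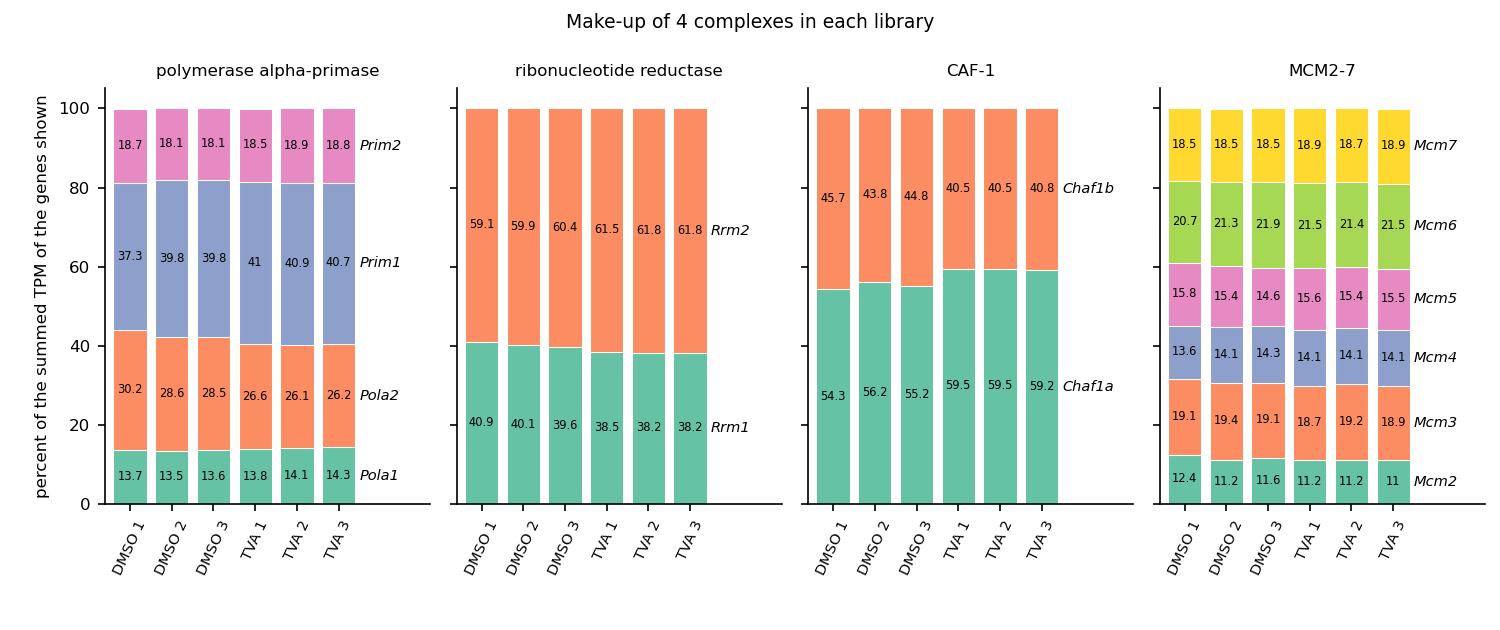
Share of each subunit, in percent, in the summed TPM of 4 complexes in each library, with the value written in each segment. In each TVA library the segments of Pola2, Rrm1 and Chaf1b are smaller than in any of the DMSO libraries, and those of MCM2-7 are nearly level.

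The DMSO libraries spread more than the TVA libraries. The SD was a larger percent of the mean with DMSO for 44 of the 48 genes, with medians of 4.82% and 1.76%. Over all genes tested the share was 74.4%, with medians of 6.17% and 3.17%. DMSO replicate 1 was the highest DMSO library for 26 members and the lowest for 14. Its difference from the mean of the other two followed the GC content of the transcripts, with a Spearman correlation of 0.75 across the 48 members and 0.6 across all genes tested. Rpa3, with 37.3% GC, was low in it (144 TPM against 175 and 192 TPM), and Pold1, with 60.7% GC, was high in it (69.4 TPM against 55.0 and 53.6 TPM).

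The log2 change between the groups followed GC content as well, with a Spearman correlation of -0.408 across the members and -0.401 across the 10588 genes with a GC value. Genes are not independent replicates, share the same 6 libraries, and these correlations are a description. After a loess correction for GC content within each library, the correlation across members was 0.05 and their median log2 change 0.0576. The correction left 9 members past the threshold, all higher, of which 7 were among the 8 (Pcna was lost, Gins2 and Pold2 were added), against 5.43% of all genes higher. Of the 8 genes that rose, 7 had a smaller log2 change after the correction, namely Prim1 (0.18 from 0.25), Pola1 (0.14 from 0.22), Prim2 (0.15 from 0.21), Cdc45 (0.17 from 0.22), Rrm2 (0.14 from 0.19), Rpa1 (0.11 from 0.15) and Pcna (0.09 from 0.17), whereas Chaf1a stayed at 0.20. Mcm4 (-0.0003) and Rrm1 (0.0001) were then close to 0. The part of GC content in the uncorrected changes was not tested beyond this correction.

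**Figure D5:**
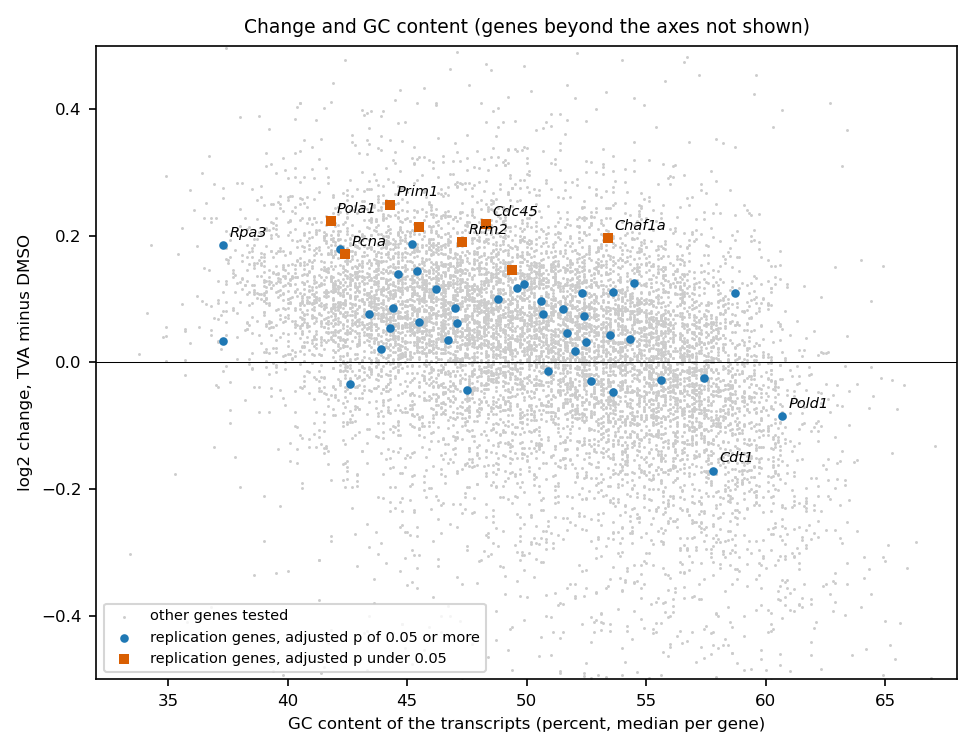
Log2 change, TVA minus DMSO, against the median GC content of a gene's transcripts in percent, for the replication genes (blue, or orange squares where the adjusted p was under 0.05) and for the other genes tested (small grey points, those beyond the axes not shown). Both sets slope downwards, from Rpa3 and Pola1 at low GC content to Cdt1 and Pold1 at high GC content.

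Further genes of replication and nucleotide supply, outside the 48, were read from the same fit. Of 51 such genes tested, 5 rose (9.8%, against 5.28% of all genes tested) and 0 fell (against 3.23%), with a median log2 change of 0.066 (0.04 over all genes tested). Samhd1, the hydrolase that breaks down deoxynucleotides, had the largest rise of this list, from 108, 105 and 106 TPM with DMSO to 135, 137 and 137 TPM with TVA. Its groups lay far apart (log2 change 0.36, limma adjusted p 0.00265), and it passed in all 14 alternatives (adjusted p 0.00125 to 0.0319), including every fit without a TVA library. The others were Clspn, the checkpoint mediator at the fork (log2 change 0.24, adjusted p 0.0162), Top2a, the topoisomerase that untangles copied DNA (0.24, 0.0162), Dck, the deoxycytidine kinase of salvage (0.22, 0.0205), and Rif1, which controls the timing of origin firing (0.17, 0.0494). Top2a passed in 11 of 14 alternatives, Clspn in 10, Dck in 8 and Rif1 in 3. After the GC correction Dck (adjusted p 0.0836) and Rif1 (0.172) no longer passed, Recql4 and Rnaseh2a passed as higher, and Dctd, the deaminase of deoxycytidylate, passed as lower (log2 change -0.17, adjusted p 0.0287). Rnaseh2c, which encodes a subunit of ribonuclease H2, had the lowest log2 change of this list (-0.73, adjusted p 0.117). Its TPM was 144, 65.6 and 142 with DMSO and 69.4, 61.7 and 67.4 with TVA, so that DMSO replicate 2 stood with the TVA libraries and the groups overlapped.

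Of 13 genes for E2F factors, their partners and the pocket proteins, 1 rose (7.69%, against 5.28% of all genes tested) and 0 fell (against 3.23%), and their median log2 change of 0.019 was below the 0.04 over all genes tested. The gene was Rbl1, which encodes the pocket protein p107, at 27.4, 25.7 and 28.3 TPM in the DMSO libraries and 32.1, 33.1 and 33.6 TPM in the TVA libraries (log2 change 0.27, limma adjusted p 0.0194). The call held in 10 of 14 alternatives (adjusted p 0.0147 to 0.109) and was lost without any one of the TVA libraries. Rbl2, the gene of its relative p130, was at 28.8, 28.1 and 28.0 TPM in the DMSO libraries and 25.8, 26.8 and 25.8 TPM in the TVA libraries. It had the lowest log2 change of the list, at -0.11 (adjusted p 0.108), and its groups did not overlap. After the GC correction 4 genes of this list passed, with Rbl2 lower (log2 change -0.16, adjusted p 0.0233) and E2f1 (0.21, 0.0159), E2f2 (0.21, 0.0228) and Rbl1 (0.19, 0.0344) higher.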

How the data were processed

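The authors deposited one table of TPM per gene symbol for the 6 libraries, and per the labels a SMARTER mRNA-Seq kit was used for library preparation. The submitters' processing notes name STAR, RSEM and mm10, without versions. Annotation, strand use and depth are not given in the sources used here, so no counting interval is given. Each column was assigned to a library through the sample descriptions. Expression was compared on log2(TPM + 1), a scale that understates changes of low genes, over 10866 genes with at least 1 TPM in at least 3 libraries, using limma 3.58.1 in R 4.3.3 with a variance trend. Tests were two-sided, without a replicate block, adjusted by the Benjamini-Hochberg method over the whole set tested, with 0.05 as the threshold. Full values are given for members past the threshold and the most abundant member of each role, and other members are given by range, or by single values where groups or settings differed, which were chosen after the values were seen. The members and lists were chosen with earlier results of these data known. Alternatives were a pseudocount of 0.1, other filters and scalings, no variance trend, a replicate block, a GC correction (loess, span 0.5, GENCODE vM21 transcripts, 97.4% of genes) and each library left out. Exon overlaps came from GENCODE vM21 and promoters from RefSeq. The fit was tested on simulated data. Python 3.11.15 and matplotlib 3.10.9 drew the figures.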

Additional observations from a re-analysis of the deposited data

How the results depend on the processing

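The 8 calls among the 48 replication genes became 5 after quantile normalization, 3 after median-of-ratios scaling, 5 with all genes above 0 TPM and 5 without the variance trend. The share of all genes tested that passed as higher, 5.28% in the main fit, was 3.29%, 2.69%, 1.61% and 4.39% in these fits. Leaving out a library gave 0 to 13 calls, where 0.35 to 11.3% of all genes tested passed as higher. With the replicate number as a block, 0 members passed in limma, where 0.856% of all genes tested passed as higher. An unadjusted p under 0.05 was found for 15 of the 48 members and for 3359 of the 10866 genes tested. Same-numbered libraries deviated together weakly (correlations 0.157, 0.035 and -0.077), and 2 of 6 correlated best with their own number, so the numbers were not taken to pair the libraries. The 5 calls among other replication genes became 2 with the block and 1 to 14 with a library left out, and the 1 call among E2F and pocket protein genes became 0 with the block, 4 after the GC correction (3 higher and 1 lower) and 0 to 3 with a library left out. The median log2 change of the 48 genes was 0.0562 after median-of-ratios scaling and 0.0576 after the GC correction. Each fit with a library left out holds fewer samples, and the cause of the lost and gained calls was not tested.

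Some changes took the other sign, and no called gene did, with Pold1 at -0.0853 in the main fit the farthest from 0. After the GC correction these were Orc1 (-0.0204), Orc4 (-0.0692), Mcm2 (0.0401), Mcm4 (-0.0003), Dbf4 (-0.0524), Pold1 (0.0895), Pole2 (-0.0168) and Tk1 (0.0069). After median-of-ratios scaling they were Dbf4 (-0.0092) and Dut (-0.0117), and after quantile normalization Dut (-0.0012). With a library left out, the ranges that crossed 0 were -0.0078 to 0.0848 for Orc4, -0.0626 to 0.0411 for Mcm2, -0.0044 to 0.0585 for Mcm3, -0.1002 to 0.005 for Gins1, -0.0705 to 0.0276 for Gins4, -0.1522 to 0.0311 for Pold1, -0.0822 to 0.0162 for Tk1, -0.0483 to 0.0974 for Dut and -0.0822 to 0.0116 for Chaf1b. Of the values of single genes under the alternatives, 645 kept their direction and side of the threshold, 80 kept only their direction and lost the threshold, 9 gained it and 22 changed sign. The limits set by depth are not known, since TPM does not hold it.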
